A study of Homo sapiens with 9 samples.

Results

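The array of cells heated at 44 °C and left to recover for 6 h was set against the array of cells heated at 42 °C and left to recover for 3 h. These are 2 of the 9 arrays of the study, chosen by their labelled temperature and recovery time, with no measured value used. The comparison asks whether the course after 44 °C is the course after 42 °C run later. U937 is a human lymphoma cell line with features of monocytes, and the study measured its transcripts after mild heat on Affymetrix arrays whose short probes lie near the 3′ ends of messages. Both cultures were heated for 15 min and returned to 37 °C, and the control was unheated cells kept at 37 °C. The other heated arrays, used here to place the pair, were the 42 °C arrays at 0, 1 and 6 h and the 44 °C arrays at 0, 1 and 3 h. Every condition had 1 array and the labels name no separate cultures, so no spread between replicates could be estimated, no test was run and n = 1 on each side of every value below. Temperature and recovery time both differ between the pair and cannot be told apart within it.

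Heat unfolds proteins, and the freed heat shock factor HSF1 then drives the genes of chaperones, which hold, refold or clear unfolded chains. HSP70 proteins such as HSPA6 do this with DNAJ partners that deliver substrates and with exchange factors such as BAG3 that release them. The IFIT genes belong to another programme, the response to interferon or to foreign nucleic acid, in which IRF and STAT factors bind a repeated element upstream of the start.

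The promoters of HSPA6 and of 3 IFIT genes are shown because these genes give the like and the unlike side of the comparison: HSPA6 was induced on both arrays, and the IFIT genes were at or near the floor on the 42 °C 3 h array, or below the control, and higher on the 44 °C 6 h array, IFIT5 only dimly. Each runs 5′ to 3′ along the gene's strand, from 250 bases before the start to 50 after it, in RefSeq's GRCh38.p14 table, and all 4 genes lie on the plus strand. HSPA6 lies at chr1:161524290-161524589, IFIT1 at chr10:89392373-89392672, IFIT3 at chr10:89327747-89328046 and IFIT5 at chr10:89414318-89414617. Capitals mark matches to a heat shock element written GAANNTTCNNGAA (3 alternating GAA units) in HSPA6, and to an interferon-stimulated response element written GAAANNGAAA in the IFIT genes, both searched on both strands.
HSPA6: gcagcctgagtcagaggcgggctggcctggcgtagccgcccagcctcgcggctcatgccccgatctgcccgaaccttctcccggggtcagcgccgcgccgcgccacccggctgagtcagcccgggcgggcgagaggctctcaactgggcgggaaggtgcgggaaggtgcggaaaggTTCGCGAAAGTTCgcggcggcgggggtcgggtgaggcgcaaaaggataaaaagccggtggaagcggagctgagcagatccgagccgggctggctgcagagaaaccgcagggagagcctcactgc
IFIT1: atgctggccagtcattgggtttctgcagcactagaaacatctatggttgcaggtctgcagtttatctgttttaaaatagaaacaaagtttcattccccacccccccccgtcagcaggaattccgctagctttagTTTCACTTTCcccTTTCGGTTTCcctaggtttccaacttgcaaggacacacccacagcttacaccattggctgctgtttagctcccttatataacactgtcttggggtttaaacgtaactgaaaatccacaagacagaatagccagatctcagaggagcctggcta
IFIT3: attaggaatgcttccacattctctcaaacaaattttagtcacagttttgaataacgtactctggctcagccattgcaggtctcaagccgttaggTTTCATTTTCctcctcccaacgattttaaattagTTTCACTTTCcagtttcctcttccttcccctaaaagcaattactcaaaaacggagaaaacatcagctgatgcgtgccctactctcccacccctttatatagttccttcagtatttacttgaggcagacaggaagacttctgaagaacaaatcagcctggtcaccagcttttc
IFIT5: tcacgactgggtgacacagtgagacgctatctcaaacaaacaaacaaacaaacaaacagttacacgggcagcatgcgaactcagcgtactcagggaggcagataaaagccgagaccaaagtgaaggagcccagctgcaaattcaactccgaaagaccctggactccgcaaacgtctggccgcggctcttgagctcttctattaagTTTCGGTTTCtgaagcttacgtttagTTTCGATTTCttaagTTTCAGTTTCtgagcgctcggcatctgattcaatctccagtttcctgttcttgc

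All matches shown lie on the opposite strand, so they read as the reverse complement of the letters given. The HSPA6 match spans bases 74 to 62 before the start. IFIT1 has 2 matches close together, at bases 116 to 107 and 103 to 94, IFIT3 has 2, and IFIT5 has 3. A further RefSeq start of IFIT3 at chr10:89332279-89332578 holds 2 as well. Over all 35116 promoters of the table, 0.49% held the heat shock element and 3.57% the interferon element in this window. SERPINH1, a further heat-induced gene, holds 1 heat shock element match at bases 76 to 64 before a start. No match was found in the windows of BAG3, DNAJA4, DNAJB1, HSPH1, HSPB1 or ZFAND2A, which says only that those letters are not in those 300 bases.

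The 2 arrays were alike for most genes. Signals were brought to a common level (a trimmed mean of 100, with 2% trimmed at each end), and any signal below 12.5, the median over all arrays, was set to that floor, where genes have no order. A gene was counted as apart when its log2 difference was at least 1 in size, which is 2-fold. Of 19775 genes, 317 (1.6%) were 2-fold higher at 44 °C 6 h than at 42 °C 3 h, 212 (1.07%) were 2-fold lower, and 529 (2.68%) were apart in either direction. With no array scaling these were 4300 higher and 7 lower, and the median gene above the floor on both arrays then stood 0.88 higher at 44 °C 6 h on the log2 scale. With the floor at the 25th percentile in place of the median, lower genes outnumbered higher ones (1906 and 1416). Among the 10729 genes above the floor on both arrays, 10335 (96.3%) were within 2-fold, and the median size of the difference was 0.29 on the log2 scale. Large differences were few: 13 genes were 4-fold higher and 2 were 4-fold lower, and the 3 genes past 8-fold were IFIT1, IFIT2 and IFIT3. Most genes apart were dim: the brighter signal of the pair had a median of 76.6 among higher genes and 39.5 among lower genes, against 196 over all genes above the floor on both arrays.

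**Figure D1:**
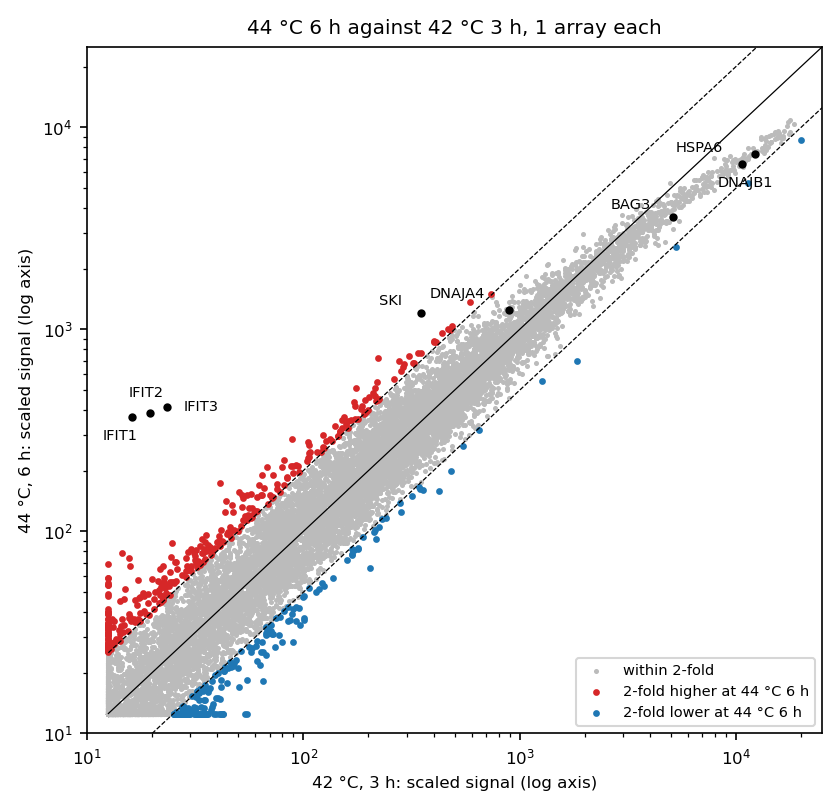
Scaled signal of each of 19775 genes on the 42 °C 3 h array (x axis) and the 44 °C 6 h array (y axis), both on log axes; the solid line is equality and dashed lines are 2-fold, red points are the 317 genes 2-fold higher at 44 °C 6 h, blue points the 212 lower, and 8 genes are named. The 3 IFIT genes stand far above the line, at signals of 369 to 411 against 16.05 to 23.4, and the brightest genes, HSPA6 and DNAJB1 among them, bend below it.

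The arrays differed in shape as well as in level, and this bears on every bright gene below. The deposited trimmed mean was 101 on the 42 °C 3 h array, the lowest of the 9, and 191 on the 44 °C 6 h array (range 101 to 211), yet the highest deposited signals were nearly equal, at 20264 and 20645. After scaling, the highest signals were therefore 20038 and 10818. The brightest 2% of genes (199, ranked on the other 7 arrays) had a median log2 difference of -0.48, which became 0.008 with quantile normalisation, where all arrays are given 1 distribution. For many bright genes and lists the quantile value is given beside the main one, and values given without it may also depend on the scaling. The share of probe signal near the 5′ end also differed. The ACTB 3′ to 5′ ratio was 1.36 on the 42 °C 3 h array, the highest of the 9, and 1.18 on the 44 °C 6 h array, the lowest. For GAPDH the ratios were 1.07 and 0.98, neither of them an extreme of the 9 arrays (0.94 to 1.13). The part of this share in the results was not tested. The label U937 was checked on 24 monocyte and myeloid markers, of which 21 were above the floor at 44 °C 6 h and 20 at 42 °C 3 h, with CD14, FCGR1A and MPO at the floor on all arrays. Their summed signal was 16273 at 44 °C 6 h and 20318 at 42 °C 3 h. Of other cells' markers, 3 of 14 T cell and 5 of 11 B cell genes were above the floor at 44 °C 6 h. So were 2 of 14 epithelial and fibroblast and 2 of 6 erythroid genes. At 42 °C 3 h these counts were 4, 6, 4 and 2. None of these 4 lists had a gene 2-fold apart, beside 2.68% of all genes. Only 4, 7, 4 and 3 of their genes were above the floor on either array, so most could not be apart.

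Few chaperone genes differed 2-fold between the arrays, as was so of genes in general. Over 5 lists together (HSP70 with HSP110, DNAJ cochaperones, HSP90 with its cochaperones, small heat shock proteins and BAG cochaperones), 78 genes were measured, and 2 were 2-fold higher and 1 was 2-fold lower at 44 °C 6 h, near the shares over all genes (1.6% and 1.07%). The median difference was -0.02, beside 0 over all genes. Against the control, 15 of the 78 were 2-fold higher and 1 lower at 44 °C 6 h (beside 2.51% and 2.64% of all genes), and 16 were higher and 2 lower at 42 °C 3 h (beside 1.98% and 3.08%). Both of these counts use the same control array. HSPA1A, HSPA1B and HSPA8, the main HSP70 genes, had no probe set assigned to them alone and were not analysed here.

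HSPA6, a strictly heat-inducible HSP70, had a scaled signal of 138 in the control. It read 4751, 7245, 10652 and 4525 at 0, 1, 3 and 6 h after 42 °C, and 131, 3988, 6645 and 6587 after 44 °C. The gene was thus still at the control level just after 44 °C, when it was already high after 42 °C, and its 6 h signal after 44 °C lay between those at 3 and 6 h after 42 °C. The log2 difference of the pair was -0.69 and became -0.05 with quantile normalisation. Its other probe set gave -0.85 with trimmed-mean scaling.

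BAG3, which couples HSP70 to the clearance of clients, read 176 in the control, 1591, 2999, 5118 and 3347 after 42 °C, and 156, 869, 2869 and 3602 after 44 °C. Its difference was -0.51, and -0.21 with quantile normalisation. DNAJA4, a DNAJ partner of HSP70, read 20.5 in the control, 259, 769, 894 and 877 after 42 °C, and 40.8, 165, 557 and 1244 after 44 °C. It was higher at 44 °C 6 h by 0.48 (0.49 with quantile normalisation), and the differences of its other probe sets ran from 0.14 to 0.97. BAG3 and DNAJA4 thus lay on opposite sides of equality, both within 2-fold, and each was still increasing between 3 and 6 h after 44 °C, while after 42 °C BAG3 was past its highest reading and DNAJA4 was level.

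ZFAND2A, a zinc finger protein of the proteasome induced by stress, had almost equal scaled signals, a match that depended on the scaling (log2 difference 0.24 with quantile normalisation). Its signal was 4122 at 42 °C 3 h and 4119 at 44 °C 6 h, from 185 in the control, and it had passed through 891 and 1743 after 42 °C and 189, 625 and 2670 after 44 °C. DNAJB1, the main DNAJ partner of inducible HSP70, read 12298 at 42 °C 3 h and 7378 at 44 °C 6 h, a difference of -0.74 that became -0.06 with quantile normalisation. HSPH1, an HSP110 that recharges HSP70, read 9422 and 7209, and its difference of -0.39 turned to 0.23. HSPB1, a small heat shock protein that holds unfolded chains, read 9120 and 6867, and its difference of -0.41 turned to 0.17. For these 3 very bright genes the sign or size of the difference followed the scaling, so no direction is read from them.

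SERPINH1, the collagen chaperone of the endoplasmic reticulum, was at the floor in the control and read 176, 271, 475 and 506 after 42 °C. After 44 °C it was at the floor at 0 and 1 h, then read 102 and 371, a difference of -0.36 on the pair. CRYAB, a small heat shock protein, was also at the floor in the control, and read 22.5, 72.4, 110 and 115 after 42 °C and 17.7, 34.7, 102 and 175 after 44 °C. HSPA4L, a relative of HSPH1, read 137 in the control, 554 and 795 at 3 and 6 h after 42 °C, and 264 and 840 at 3 and 6 h after 44 °C. CRYAB and HSPA4L were higher at 44 °C 6 h than at 42 °C 3 h by 0.67 and 0.60. HSPA4L differed by 0.08 from its 42 °C 6 h signal. CRYAB was above every 42 °C signal, and still 0.61 above the 42 °C 6 h one.

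HSPA1L, an HSP70 gene beside HSPA1A and HSPA1B, had the largest deficit among induced HSP70 genes. It read 31.7 in the control, 351.04 at 42 °C 3 h and 176 at 44 °C 6 h, a difference of -0.9996 that fell just short of the 2-fold rule, and was -1.04 with quantile normalisation and -1.50 on its other probe set. HSPB8, the small heat shock protein that works with BAG3, was the 1 chaperone gene counted as lower: it read 32.3 at 42 °C 3 h and was at the floor at 44 °C 6 h, so it was at least 2.58-fold lower, from a dim signal.

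The 2 chaperone genes counted as higher were not induced by heat. CDC37L1, a relative of the HSP90 cochaperone CDC37, read 65.4 in the control, 15.8 at 42 °C 3 h and 67.7 at 44 °C 6 h, a 4.29-fold difference (log2 2.10; 1.23 on its other probe set). It read 34.4 and 32.2 at 0 and 1 h after 42 °C and 74.2 at 6 h. DNAJC14, a membrane DNAJ protein, read 119 in the control, 54.9 at 42 °C 3 h and 114 at 44 °C 6 h; its difference of 1.05 was 0.9956 with quantile normalisation, short of the rule, and 0.32 on its other probe set. For both genes the 42 °C 3 h array was the low one, and the 44 °C 6 h array was near the control.

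Of the chaperone genes of the 5 lists, 14 were 2-fold above the control at 42 °C 1 h, an array outside the pair. None of these 14 was 2-fold apart within the pair, beside 2.68% of all genes, so a set this small could hold none without differing from genes in general. At 44 °C 6 h 8 were lower and 6 higher, with differences from -0.9996 to 0.70 and a median of -0.23. With quantile normalisation 5 were lower and 9 higher, with a median of 0.21, and HSPA1L passed the rule as lower. The nearest of the 4 42 °C arrays to 44 °C 6 h was asked for each of the 66 chaperone genes above the floor on all arrays. It was the 3 h array for 24 genes (36.4%) and the 6 h array for 22 (33.3%), beside 23.9% and 38.4% of all 9913 such genes. With quantile normalisation the 3 h array was nearest for 21 and the 6 h array for 30, so which of them was nearest for more chaperone genes depended on the scaling.

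**Figure D2:**
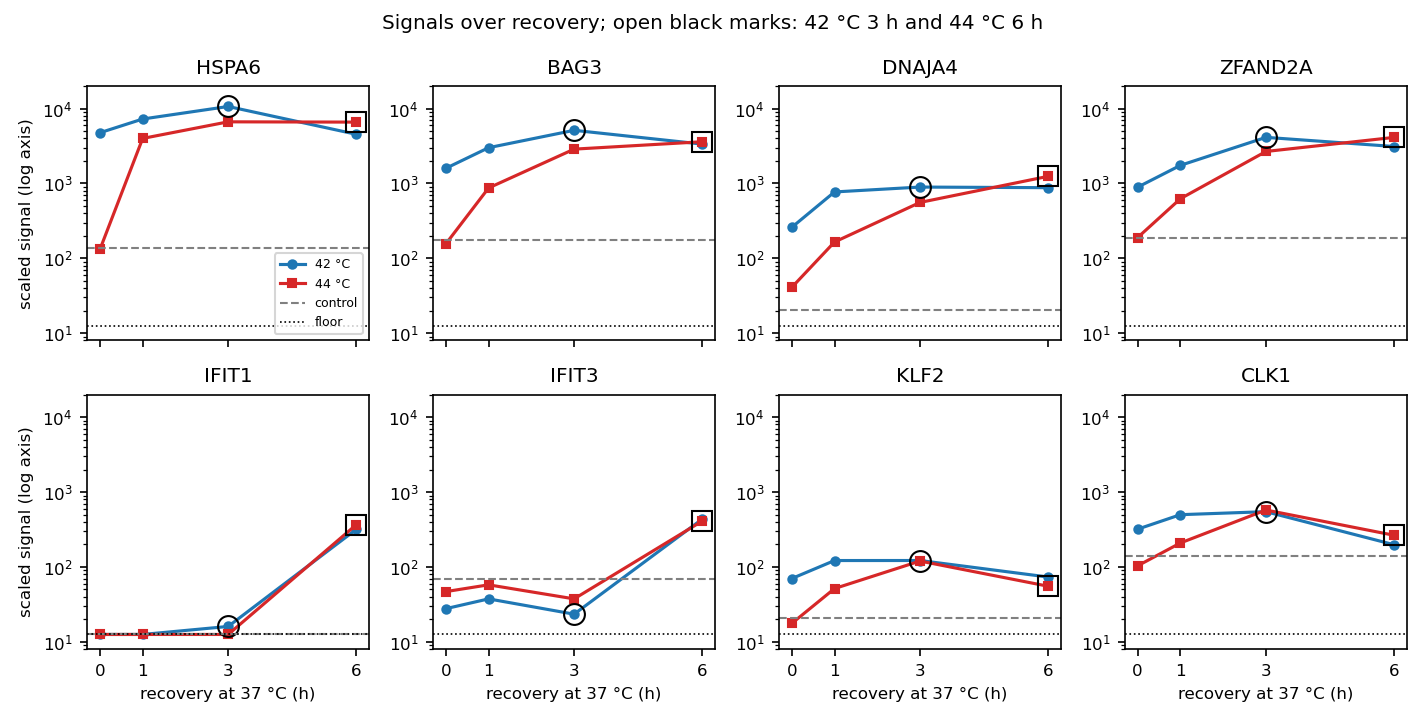
Scaled signal (log axis) of 8 genes against hours of recovery at 37 °C after 42 °C (blue circles) and 44 °C (red squares), 1 array per point, with the control (dashed) and the floor of 12.5 (dotted); large open marks show the pair compared. ZFAND2A reads 4122 and 4119 on the pair, whereas IFIT1 reads 16.05 and 369 and reaches 319 at 42 °C 6 h.

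The interferon-response genes IFIT1, IFIT2 and IFIT3 were the largest differences of the pair. IFIT1, which binds foreign RNA ends, was at the floor on all arrays except 42 °C 3 h (16.05), 42 °C 6 h (319) and 44 °C 6 h (369). It was 23.0-fold higher at 44 °C 6 h than at 42 °C 3 h, and differed by 0.21 from 42 °C 6 h. IFIT2, which acts in a complex with IFIT1 and IFIT3, read 13.3 in the control, 19.5 at 42 °C 3 h, 298 at 42 °C 6 h and 384 at 44 °C 6 h, and was 19.7-fold higher on the pair (log2 4.30; 3.73 on its other probe set). These genes were thus high on both 6 h arrays and on no earlier array of either temperature.

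IFIT3, a partner that stabilises IFIT1, was above the floor throughout. It read 70.1 in the control, 27.7, 37.5, 23.4 and 437 after 42 °C, and 46.9, 57.7, 37.5 and 411 after 44 °C. It was 17.6-fold higher on the pair (log2 4.14; 3.24 on its other probe set) and differed by -0.09 from 42 °C 6 h. IFIT5, a further member, was at the floor on all arrays except 42 °C 6 h (30.7) and 44 °C 6 h (25.6), so it was at least 2.04-fold higher on the pair, from a dim signal.

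Few other interferon genes passed 2-fold. Of 35 measured, 5 were 2-fold higher (the 4 IFIT genes and PARP9, an antiviral ADP-ribosyltransferase relative, 23.0 against 52.5) and 1 was 2-fold lower, beside 1.6% and 1.07% of all genes, with a median of 0.06; between 44 °C 6 h and 42 °C 6 h, 0 were higher and 1 was lower (beside 0.85% and 1.37% of all genes). The lower gene of the pair was IFI6, a mitochondrial interferon-induced protein, which read 74.0 at 42 °C 3 h and 26.8 at 44 °C 6 h. ISG15, a ubiquitin-like modifier, read 267 in the control, 253 at 42 °C 3 h, 470 at 42 °C 6 h and 476 at 44 °C 6 h, within 2-fold of the 42 °C 3 h array at 0.91. Also short of 2-fold, RIGI, XAF1 and CMPK2 were higher by 0.94, 0.83 and 0.62, and BST2 and EPSTI1 differed by -0.45 and -0.29. MX2 differed by -0.11, and IFI27, IFI44 and IFI44L were at the floor on all arrays. RSAD2 was above the floor only at 44 °C 6 h, at 16.7, and OAS2 read 27.8 at 42 °C 6 h, 14.1 at 44 °C 0 h and the floor elsewhere.

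Immediate early and signalling genes, which switch on and off within hours of a stimulus, were partly past their high point at 44 °C 6 h. Of 29 immediate early genes, 1 was 2-fold higher and 1 was 2-fold lower (beside 1.6% and 1.07% of all genes), with a median of 0.04. KLF2, a zinc finger factor and the lower one, read 20.9 in the control, 69.99, 122, 122 and 73.3 after 42 °C, and 17.6, 51.5, 120 and 55.2 after 44 °C. At 3 h it was equally high after both temperatures, and by 6 h it had dropped after both. Its other probe set gave -0.52 on the pair, short of 2-fold. DUSP1, a MAP kinase phosphatase, read 283, 730, 641 and 155 after 42 °C and 44.7, 547, 1009 and 336 after 44 °C, a difference of -0.93. CLK1, a kinase of splicing factors, read 138 in the control, 548 at 42 °C 3 h, 576 at 44 °C 3 h, 198 at 42 °C 6 h and 265 at 44 °C 6 h, and was lower on the pair by 2.07-fold. It was the 1 gene 2-fold apart among 16 SR protein and CLK genes, whose median was -0.13.

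Other members of the immediate early list lay on both sides. JUN, an AP-1 subunit, read 591 at 42 °C 3 h and 960 at 44 °C 6 h (0.70), but its other probe sets gave -0.31 to 0.80. FOS, its partner, read 106 and 108 (0.02). EGR1, a growth factor-induced factor, read 149 and 78.0 (-0.93), with -0.54 to -0.43 on its other probe sets. FOSL1, an AP-1 subunit and the higher one, read 71.9 in the control, 22.5 and 46.5, both below the control. MYC, the growth regulator, was lower than the control on every heated array: it read 3123 in the control, 614, 564, 607 and 1200 after 42 °C, and 2567, 1914, 787 and 859 after 44 °C. Its signal at 44 °C 6 h lay between those at 3 and 6 h after 42 °C.

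Among 25 inflammatory NF-kB targets, 2 were 2-fold higher and 1 was lower (beside 1.6% and 1.07% of all genes), with a median of -0.15. IL1B, the secreted interleukin-1 of monocytes, read 106 in the control, 281 at 42 °C 3 h and 138 at 44 °C 6 h, 2.03-fold lower. IL1A, its relative, went the other way, from 14.8 to 46.1, and TNF was at the floor at 42 °C 3 h and read 33.1 at 44 °C 6 h, so it was at least 2.64-fold higher; both are dim. HBEGF, a growth factor that binds the EGF receptor and is in no list (chosen after its values were seen), read 150 in the control, 482 at 42 °C 3 h, 465 at 44 °C 3 h, 176 at 42 °C 6 h and 199 at 44 °C 6 h. KLF2, CLK1, IL1B and HBEGF were all high at 3 h and lower at 6 h, whichever the temperature.

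Stress pathways outside the chaperones, apart from the NRF2 targets given next, held about as few genes apart as all genes did (1.6% higher, 1.07% lower). Of 26 integrated stress response genes 1 was higher, with a median of -0.07; this was ATF5, a stress transcription factor, at 32.0 against 81.3, and another probe set of the gene gave -0.16. CHAC1, a glutathione-degrading target of that pathway, read 71.9 and 37.8. None of 24 unfolded protein response genes was apart (median -0.19), and DNAJB9, a chaperone of the endoplasmic reticulum, read 178 in the control, 831 at 42 °C 3 h and 715 at 44 °C 6 h. None of 21 ubiquitin and aggregate clearance genes, 8 metallothioneins or 5 heat shock factor genes was apart, with medians of -0.02, 0.07 and 0.

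Of 20 targets of NRF2, the factor of the oxidative stress response, 2 were 2-fold higher (beside 1.6% of all genes): SRXN1, which repairs peroxiredoxins, at 262 against 570, and the dim OSGIN1, at least 2.52-fold higher. HMOX1, which degrades heme, was among the strongest late genes. It read 114 in the control, 210, 452, 745 and 1158 after 42 °C, and 94.7, 119, 526 and 1449 after 44 °C, and was still increasing at 6 h on both courses. On the pair it was higher by 0.96, short of 2-fold.

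The study's title concerns apoptosis. Counts of cell death genes apart were near the shares over all genes (1.6% higher, 1.07% lower). Of 29 proapoptotic genes 1 was 2-fold higher and 0 lower (median 0), and of 16 antiapoptotic genes 0 were apart (median 0.11). The higher gene was CASP8, the initiator caspase of death receptors. It read 228 in the control, 200 at 42 °C 3 h, 482 at 42 °C 6 h and 460 at 44 °C 6 h, 2.30-fold higher on the pair, with 0.47 on its other probe set. It was highest on the 6 h array of both temperatures. PMAIP1, the BH3-only protein NOXA, was induced on both arrays, at 1715 and 1335 from 496 in the control. XIAP, a caspase inhibitor, and PIM1, a survival kinase, were higher at 44 °C 6 h by 0.94 and 0.91, both short of 2-fold, and BMF, a BH3-only protein, differed by -0.95.

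Growth and housekeeping lists held 0 or 1 gene apart each, where 2.68% of all genes were apart. CCNE2, the cyclin that starts S phase, read 385 in the control, 176 at 42 °C 3 h, 379 at 42 °C 6 h and 512 at 44 °C 6 h, 2.91-fold higher on the pair, with 1.34 on its other probe set. It was the 1 gene apart of 32 S phase genes (median -0.07). Of 33 mitosis genes only ASPM, a spindle protein, was apart, at 194 against 390; its difference was 0.95 with quantile normalisation, short of the rule, and its other probe sets gave -0.43 to 0.27. Of 20 p53 targets only PLK3, a stress kinase, was apart, at 16.6 against 45.7, with -1.22 on another probe set. Of 18 cholesterol synthesis genes 1 was lower, the dim HSD17B7 (54.8 against 18.3), and the median was -0.43 (-0.30 with quantile normalisation); the list stood at -0.08 against the control at 42 °C 3 h, -0.36 at 44 °C 6 h and -0.51 at 42 °C 6 h. None of 27 ribosome biogenesis, 28 proteasome, 31 oxidative phosphorylation, 9 chaperonin or 13 housekeeping genes was apart, with medians of -0.22, -0.24, -0.19, -0.37 and -0.02, which became -0.14, -0.05, -0.03, -0.07 and 0.14 with quantile normalisation, so no direction is read from them. The 26 ribosomal protein genes had a median of -0.65 and all were lower, but the median was 0.004 with quantile normalisation and 0.27 without scaling. CD86, a costimulatory receptor, was the 1 myeloid marker apart: it was above the floor at 42 °C 6 h (30.8), 44 °C 6 h (31.5) and, at 13.4, 44 °C 3 h.

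**Figure D3:**
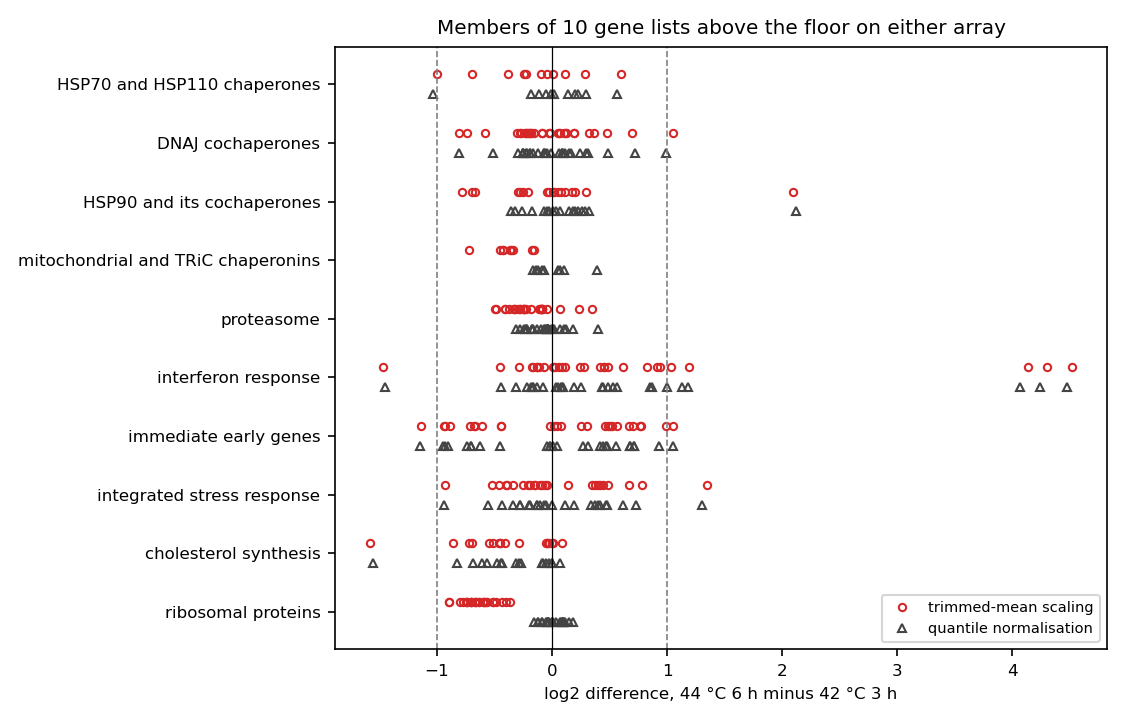
Log2 difference of 44 °C 6 h minus 42 °C 3 h (x axis) for each member of 10 gene lists above the floor on either array, 1 point per gene, with trimmed-mean scaling (red circles) and quantile normalisation (grey triangles); dashed lines are 2-fold. The 26 ribosomal protein genes shift from a median of -0.65 to 0.004 between the scalings, and IFIT1 to IFIT3 stay above 4 under both.

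Apart from the IFIT genes, most of the 15 largest rises of the pair were genes at or near the floor at 42 °C 3 h. BEST1, a chloride channel, was at the floor at 42 °C 3 h and read 69.3 at 44 °C 6 h, at least 5.52-fold higher, though another probe set gave -0.35. SOX13, a transcription factor, read 52.1 in the control, 14.5 at 42 °C 3 h and 78.0 at 44 °C 6 h. DGAT2, which makes triglyceride, read 129 in the control, was at the floor at 42 °C 3 h and read 54.4 at 44 °C 6 h. IL1RAP, the shared chain of interleukin-1 receptors, read 108, 41.0 and 174 on the same arrays. CASTOR2, ELK2AP, APBA2, ENPP2, THAP3 and SFT2D3 were 3.56-fold to 4.70-fold higher, with the floor as a bound for 4 of them. Other probe sets of SOX13, DGAT2, APBA2, IL1RAP and ENPP2 gave 0.77, 0.62, 0.51, 0.87 and 0.47, each short of 2-fold. SKI, a corepressor of TGF-beta signalling, was the brightest of the largest rises: it read 514 in the control, 349 at 42 °C 3 h, 524 at 42 °C 6 h and 1207 at 44 °C 6 h, but its other probe sets gave 0.03 to 0.36.

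The largest falls were dim and small beside the rises. EEF2KMT, a methyltransferase of elongation factor 2, read 54.7 at 42 °C 3 h and was at the floor at 44 °C 6 h, at least 4.36-fold lower, but it varied from 17.6 to 110 over the other heated arrays. TPMT, which methylates thiopurine drugs, read 203 at 42 °C 3 h and 54.1 to 116 on all other arrays, and was 65.9 at 44 °C 6 h. PNLDC1, a ribonuclease, was at the floor in the control and read 39.9, 131, 63.2 and 26.6 after 42 °C, but no more than 21.8 after 44 °C. The other 12 (PLEKHA8P1, RPLP2, NPM2, RAX2, SPATA33, NEK8, SLC66A1, TMEM184A, HSD17B7, FBXL17, SPNS3 and RNF207) read 36.2 to 89.4 at 42 °C 3 h. Other probe sets of FBXL17, SPATA33, NEK8 and SLC66A1 gave -0.02, -0.53, -0.65 and -0.95, short of 2-fold, and that of RNF207 gave -1.11. Of the 212 lower genes, 39 had a signal of 100 or more at 42 °C 3 h, against 128 of the 317 higher genes at 44 °C 6 h. The brightest of the 39 were mitochondrial COX1 (20038 against 8644) and ATP6 (11327 against 5314), subunits of respiratory complexes chosen after their values were seen. Their differences of -1.21 and -1.09 were -0.42 and -0.49 with quantile normalisation.

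Which array of the pair stood away from the control was counted next. Of the 317 higher genes, 124 were also 2-fold below the control at 42 °C 3 h, 80 were 2-fold above it at 44 °C 6 h, and 114 were within 2-fold of it on both. Only IFIT3 was 2-fold below the control at 42 °C 3 h and 2-fold above it at 44 °C 6 h. The 42 °C 3 h array was the lowest of the 9, or tied at it, for 176 of the 317, and at the floor for 60 of the 317. Of the 212 lower genes, 65 were 2-fold above the control at 42 °C 3 h and 56 were 2-fold below it at 44 °C 6 h. A further 91 were within 2-fold on both. The 44 °C 6 h array was the lowest of the 9, or tied, for 149 of the 212, and at the floor for 75 of the 212. The rule already picks genes low on the array in question, and any signal at the floor counts as tied. The counts of lowest arrays therefore do not show which array of the pair is unusual. Both comparisons with the control use the same array.

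The genes were also sorted by their course on 4 arrays outside the pair, the control and the 42 °C arrays at 0, 1 and 6 h, and the pair was then read in each class. The classes can share genes. The 166 late-rise genes (2-fold higher at 42 °C 6 h than at 1 h and than the control) had a median difference of 0.31, and 25 were 2-fold higher and 4 lower at 44 °C 6 h than at 42 °C 3 h. The 274 early-fall genes (2-fold below the control and the 6 h array at 0 or 1 h) had a median of 0.53, and 54 were higher and 1 lower. By median, both classes stood higher at 44 °C 6 h, the direction in which they changed from early to 6 h after 42 °C. This held in the settings that scale the arrays and keep the floor at or under the median. A response of another size after 44 °C could give the same signs, so size and timing cannot be told apart here.

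The 132 early-rise genes (2-fold above the control and the 6 h array at 0 or 1 h) had a median of -0.23, with 3 higher and 16 lower, and the 156 late-fall genes had a median of -0.29, with 6 higher and 13 lower. Genes with a lasting change differed less: 174 lasting-rise genes had a median of -0.06 (4 higher, 9 lower) and 120 lasting-fall genes 0.08 (10 higher, 4 lower). The lasting-rise genes stood at a median of 1.45 above the control at 42 °C 3 h and 1.503 at 44 °C 6 h, and the lasting-fall genes at -1.16 and -1.14. Over all genes the shares were 1.6% higher and 1.07% lower, against 15.1% higher among late-rise and 19.7% higher among early-fall genes. The shares over all genes include 7321 genes above the floor on neither array, which could not be apart. Of the 12454 genes above the floor on either array, 317 were higher and 212 lower. Class members also had to differ 2-fold on other arrays, so the contrast with all genes is not one of like sets.

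**Figure D4:**
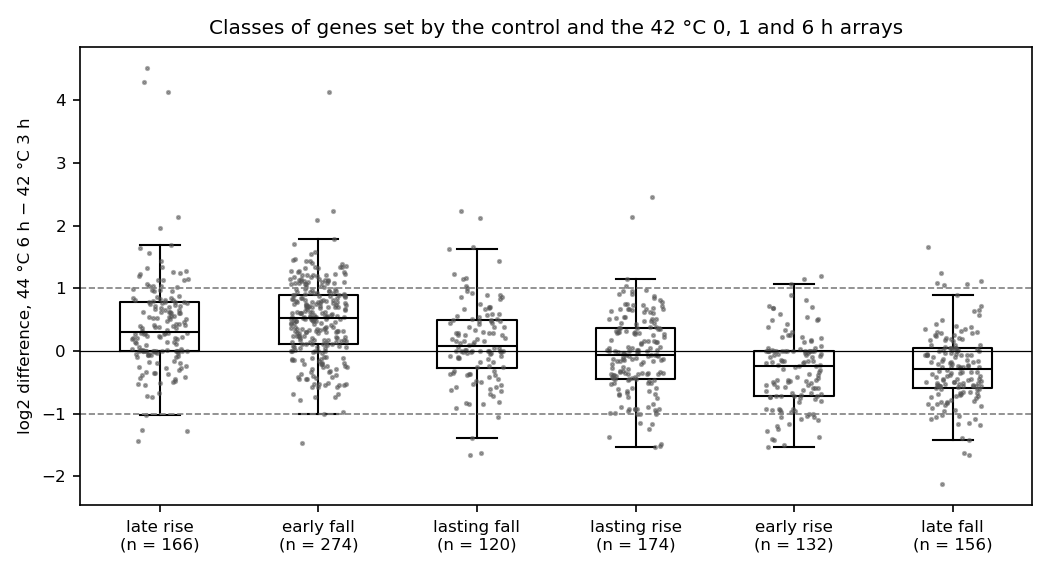
Log2 difference of 44 °C 6 h minus 42 °C 3 h (y axis) for genes of 6 classes set by the control and the 42 °C arrays at 0, 1 and 6 h; points are genes, boxes the quartiles and median, whiskers reach points within 1.5 box heights, and dashed lines are 2-fold. Medians run from 0.53 in early-fall and 0.31 in late-rise genes through 0.08 and -0.06 in the lasting classes to -0.23 in early-rise and -0.29 in late-fall genes.

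The 4 genes described here from the late-rise and early-fall classes were chosen after their values were seen, lie far above the class medians and do not stand for their classes. PNRC1, a nuclear receptor coactivator of the late-rise class, read 119 in the control, 174 at 42 °C 3 h, 424 at 42 °C 6 h and 417 at 44 °C 6 h. CENPQ, a centromere protein of that class, read 129, 172, 276 and 435 on the same arrays. RGS1, a brake on G protein signalling of the early-fall class, read 210 in the control, 32.9 at 42 °C 0 h and 26.5 at 44 °C 0 h, then 219 at 42 °C 3 h, 392 at 42 °C 6 h and 549 at 44 °C 6 h. RBBP6, a ubiquitin ligase that binds RB, read 486 in the control, 222 at 42 °C 3 h, 539 at 42 °C 6 h and 723 at 44 °C 6 h, and its difference of 1.71 was 0.92 with quantile normalisation.

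The pair was last set beside the other pairings of the courses. The 44 °C 6 h array was 2-fold apart from the 42 °C arrays at 0, 1, 3 and 6 h in 1188, 916, 529 and 439 genes (6.01%, 4.63%, 2.68% and 2.22%), so the same recovery time gave fewer genes apart than the 3 h array. The median size of the difference over genes above the floor on all arrays was 0.35, 0.32, 0.29 and 0.23 in the same order. Over 945 genes that were 2-fold from the control at 44 °C 0, 1 or 3 h, a choice that uses neither array of the pair, the counts were 248, 186, 119 and 96. With quantile normalisation the counts over all genes were 1154, 877, 536 and 419. With the floor at the 25th percentile the 3 h array had the fewest (3322, against 3360 for the 6 h array), and without scaling the 0 h array did (1552), so among the settings run this order held where arrays were scaled and the floor was at the median or above.

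**Figure D5:**
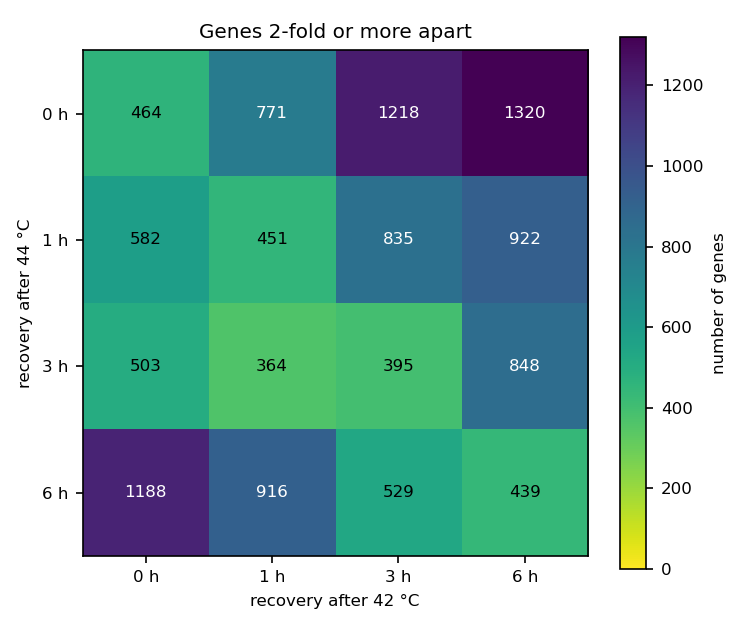
Number of genes 2-fold or more apart between each 44 °C array (rows, by hours of recovery) and each 42 °C array (columns), out of 19775, with 1 array per condition; darker cells hold more genes. The 44 °C 6 h row falls from 1188 to 439 towards the 42 °C 6 h array, and the 44 °C 3 h row has its lowest count, 364, at 42 °C 1 h.

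At 0 and 1 h, as at 6 h, the 44 °C array had its lowest count against the 42 °C array of the same time. At 3 h it did not. The 44 °C 0 h array was 2-fold apart from the 42 °C arrays at 0, 1, 3 and 6 h in 464, 771, 1218 and 1320 genes. The 44 °C 3 h array was 2-fold apart from the 42 °C arrays at 0, 1, 3 and 6 h in 503, 364, 395 and 848 genes, lowest against the 1 h array, and the 44 °C 1 h array in 582, 451, 835 and 922 genes. The 364 genes were the fewest of all 16 pairings. On the courses shown above, ZFAND2A, BAG3 and DNAJA4 illustrate the spread: with trimmed-mean scaling, ZFAND2A at 44 °C 6 h was nearest to its 42 °C 3 h signal, BAG3 to its 6 h signal, and DNAJA4 was above every 42 °C signal, while IFIT1, IFIT3 and CASP8 were nearest to their 42 °C 6 h signals.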

How the data were processed

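The authors' deposited tables hold linear intensity for 54675 probe sets on each of 9 arrays, which are MAS5 signals per the submitters' processing notes; a target intensity is not given in the sources used here. Scanner files were not used here. Each array was multiplied by 1 factor (0.989 for 42 °C 3 h, 0.524 for 44 °C 6 h) so that the 54613 probe sets left after removing controls had a trimmed mean of 100, floored at the median (12.5) and taken to log2. The platform annotation gives 1 symbol to 41091 of these (41037 matched RefSeq by gene number, 0 symbols updated). Over all probe sets, controls included, 1801 had several symbols and 11777 none, and these were not named. A gene was represented by its brightest probe set on average over the arrays, giving 19775 genes.

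With 1 array per condition, a precision cannot be given and a size rule of 2-fold replaced a test. The rule for names took the 15 largest rises and falls (no other probe set off the floor opposite by 0.5 or more; no clone, reading frame or immunoglobulin labels), up to 4 members of each of 32 lists past the rule, all members of the HSP70, small heat shock protein, BAG, heat shock factor, IFIT, immediate early and apoptosis lists, and chosen stress genes; examples outside it are named as such or serve to show a list. Genes, lists and classes were chosen with earlier results of these data known. The code was tested on simulated data. Python 3.11.15, numpy 2.4.6 and pandas 2.3.3 were used. The 5 alternatives changed the scaling, the floor or the probe set rule, and a further one, added after seeing the data, kept genes above the floor on both arrays.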

Additional observations from a re-analysis of the deposited data

Results flagged for a closer look

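IFIT3 moved in opposite directions against the control on the 2 arrays: its log2 difference from the control was 2.55 at 44 °C 6 h and -1.58 at 42 °C 3 h, which is 4.14 apart. Both values use the same control array, and the difference was not tested, as each condition has 1 array. Over all genes, 1 gene was 2-fold above the control at 44 °C 6 h and 2-fold below it at 42 °C 3 h, and 0 genes had the opposite pattern.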

How the results depend on the processing

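No paired analysis was possible because each condition has 1 array and the labels give no replicate numbers. Quantile normalisation gave 320 higher and 216 lower genes. Without scaling there were 4300 and 7, with a 25th percentile floor 1416 and 1906, with a 70th percentile floor 124 and 36, with the median over probe sets 200 higher, and over genes above the floor on both arrays 137 lower. Genes apart from 42 °C 0, 1, 3 and 6 h numbered 3709, 3524, 3322 and 3360 with the 25th percentile floor and 655, 414, 160 and 90 with the 70th. Without scaling they numbered 1578, 4307 and 3157 for 1, 3 and 6 h, with the median over probe sets 348 for 3 h, and over genes above the floor on both arrays 276 for 6 h. Without scaling, where the median gene stood at 0.88, the medians of late-rise, early-fall, lasting-rise and lasting-fall genes were 1.13, 1.41, 0.82 and 0.88, and those of late-fall and early-rise genes turned positive, at 0.58 and 0.25. With the 70th percentile floor all class medians were 0 except 0.28 for early-fall genes. Of 48 named genes past 2-fold, 46 stayed past it with quantile normalisation, 33 without scaling, 45 and 14 with the lower and higher floor, and 30 with the median over probe sets, where ATF5 (-0.078) and PLK3 (-0.40) reversed. A signal near the floor and 1 array a side limit every fold here.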

Other observations

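Genes whose names are ZNF and a number, most of which code for zinc finger transcription factors, held more higher than lower genes on the pair: of 425 measured, 23 were 2-fold higher and 4 lower at 44 °C 6 h (beside 1.6% and 1.07% of all genes), with a median of 0. Against the shared control, 31 were 2-fold lower at 42 °C 3 h and 13 at 44 °C 6 h. The group was chosen after its values were seen. The genes TFB2M, a mitochondrial transcription factor, and NUP153, a nuclear pore protein, also chosen after their values were seen, were bright genes that were lower at 42 °C 3 h than on any other array. TFB2M read 1328 in the control, 734 at 42 °C 3 h and 1495 at 44 °C 6 h, and NUP153 read 944, 484 and 1041. At 0 and 1 h after 42 °C TFB2M read 1172 and 992. NUP153 read 540 and 503 there, nearly as low as at 3 h, so its low signal was not particular to the 3 h array. HLA-G, an HLA class I gene close in sequence to its relatives, read 1160 in the control, 1833 at 42 °C 3 h and 699.8 at 44 °C 6 h, and SET, a histone chaperone, read 3305, 5272 and 2560. The SET difference of -1.04 was -0.77 with quantile normalisation, and that of HLA-G was -1.39 and -1.31. SET was not high at 42 °C 3 h alone: it read 5333 at 42 °C 6 h, and 2372 and 2745 at 1 and 3 h after 44 °C.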
